A study of Salmo salar with 8 samples.

Results

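Complement factor D (CFD) was the symbol of 5 probes among the 43689 probes of a salmonid oligonucleotide array. The 5 were all the probes that carry this symbol, 1 of 1449, in the study's list of differentially expressed probes. That list was itself drawn from the Day 5 against Day 1 change in the same 8 samples, so that change chose the members and is given below as a description, with no test. Adherent head kidney leukocytes (HKLs) of 4 Atlantic salmon were isolated on a Percoll gradient, cultured in L-15 medium with fetal bovine serum and antibiotics, freed of non-adherent cells by rinsing, and sampled after 1 day (24 h, Day 1) and 5 days (120 h, Day 5) without any further treatment. The 2 samples of each fish give 4 arrays a day, and every array carried 1 sample labelled with Cy5 and a pool of all samples labelled with Cy3. Values are log2 ratios of sample over pool after background correction and normalization within the array.

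CFD, also called adipsin, is a serine protease of the chymotrypsin fold. It cleaves factor B once factor B is bound to C3b, which forms the C3 convertase of the alternative complement pathway, and in mammals this is the rate-limiting protease of that pathway. In mammals it is made mainly by adipocytes, and also by monocytes and macrophages, and it is a close relative in sequence of the proteases stored in neutrophil, mast cell and cytotoxic lymphocyte granules. The head kidney is the main blood-forming organ of bony fish, so its leukocytes include monocytes and macrophages, granulocytes and lymphocytes. The RefSeq annotation of the salmon assembly Ssal_v3.1 holds 1 gene with the symbol cfd, but the array files do not pair it with the probes, and whether the 5 probes report 1 transcript or several related ones was not tested. In the study, fewer changed probes share the description complement factor D than carry the symbol, so only the symbol joins all 5.

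Spot brightness set how far each probe can be read. Each array carried 153 negative control spots, and 2 SD above their mean Cy5 signal was taken as its detection limit. Signals were set against it without taking off the local background. This limit lay between 159 and 693 intensity units, lowest on the array of Fish 1 at Day 1, and between 40.4% and 51.3% of the probes were over it. All 40 reference spots of the 5 CFD probes were over the corresponding Cy3 limit, and none was flagged or saturated. The array of Fish 1 at Day 1 was also the only one read from an image named as scan 1, whereas the other 7 were read from images named as scan 2, so scan and sample cannot be told apart there.

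All 5 CFD probes were lower at Day 5 than at Day 1 on average, and 3 of them were at or under the detection limit in all 4 fish at Day 5. At Day 1, 19 of the 20 CFD spots were over the limit and at Day 5 only 6 of 20 were, 4 of them of a single probe. These 4 include the C108R122 spot of Fish 4, which was left out of the log2 ratios for its local background. The log2 ratios of 3 probes with all 8 values did not overlap between days, as was the case for 6.01% of the 26008 probes with 8 values, and neither did those of C108R122 with 7 values. In the limma fit across 38695 probes, 3 of the 5 CFD probes passed the adjusted threshold of 0.05, against 0.936% of all tested probes that passed it and were lower at Day 5. Since these probes were chosen by this change, nothing is read from those shares. All limma calls made here from the signal intensities rest on an offset of 50 in the background correction. With an offset of 10, plain subtraction or no correction no probe of the array passed in limma, with 4217 to 4463 at an unadjusted p under 0.05. With the offset of 50 but without Fish 3, 1 CFD probe passed. Limma on the authors' processed log2 ratios, which they had normalized themselves, called 1068 probes, 4 of them CFD probes.

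**Figure D1:**
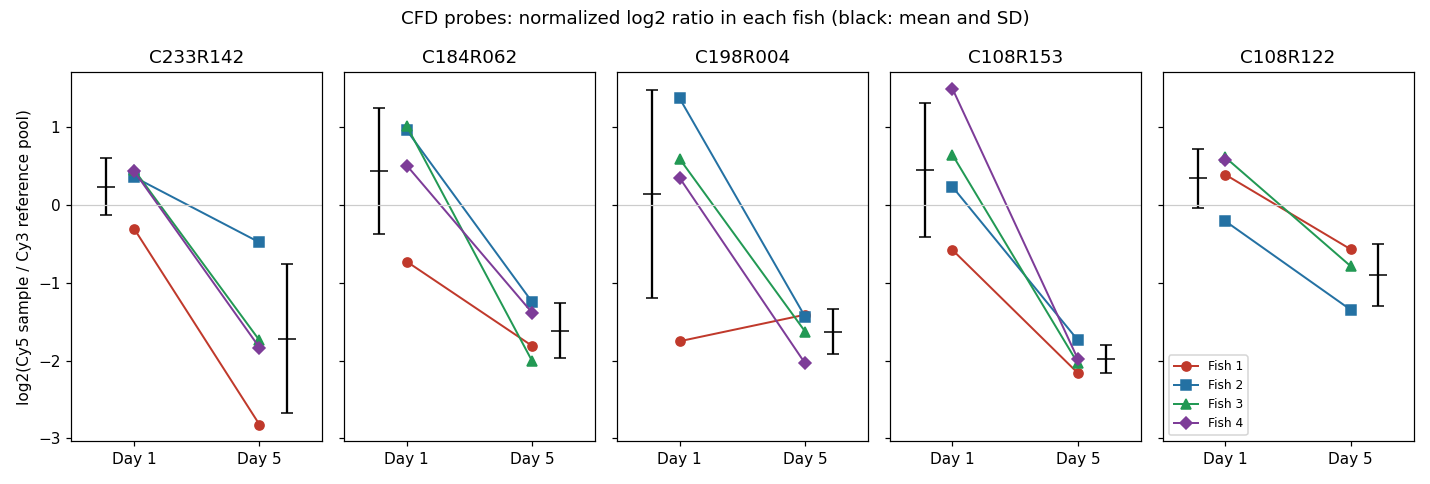
Normalized log2 ratio of sample over reference pool (vertical axis) at Day 1 and Day 5 for each CFD probe, with 1 coloured line per fish and black bars for the mean and SD of each day. Every line falls except that of Fish 1 in probe C198R004, and Fish 1 starts lowest in 4 of the 5 panels; the Day 5 value of Fish 4 in C108R122 is missing.

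The log2 ratios of C108R153 at Day 1 were -0.58, 0.23, 0.64 and 1.49 in Fish 1 to Fish 4. At Day 5 they were -2.16, -1.74, -2.04 and -1.98. The Day 1 values thus spread over more than 2 log2 units, with Fish 1 lowest and Fish 4 highest, while the Day 5 values lay close together and below all of them. The mean went from 0.45 ± 0.86 to -1.98 ± 0.18 (SD, n = 4), a difference of -2.43 (SE 0.36), or 5.38-fold lower. Cy5 was over the limit on all 4 arrays of Day 1 and on 2 of 4 at Day 5, so only this probe and C108R122 were measured to some extent on both days.

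C108R122 had the smallest measured difference, although the fold values given below for C233R142 and C198R004 against a detection floor do not exceed it. Its Day 1 log2 ratios were 0.39, -0.21, 0.61 and 0.57 in Fish 1 to Fish 4. At Day 5 they were -0.57, -1.35 and -0.79 in Fish 1 to Fish 3, and the spot of Fish 4 was left out because its Cy5 signal of 863 was less than 2 SD above a local background of 434 (SD 406). Unlike the other 4 probes, it had Fish 2 and not Fish 1 as its lowest sample at Day 1. The mean went from 0.34 ± 0.38 (SD, n = 4) to -0.90 ± 0.40 (SD, n = 3), a fitted difference of -1.17 (SE 0.36), or 2.24-fold lower. It was the one CFD probe with Cy5 signal over the limit on all 8 arrays. That count includes the spot of Fish 4 at Day 5, which did not stand clear of its local background. Its differences within fish of -0.96, -1.14 and -1.40 had the smallest SD of the 5 probes, at 0.22 against 0.76 or more in the others, part or all of whose Day 5 spots were under the limit.

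C184R062 gave Day 1 log2 ratios of -0.73, 0.96, 1.01 and 0.51 in Fish 1 to Fish 4. At Day 5 it gave -1.81, -1.25, -2.01 and -1.39. Fish 1 stood 1.23 below the next lowest fish at Day 1 and lay between the others at Day 5. The mean went from 0.44 ± 0.81 to -1.62 ± 0.36 (SD, n = 4), a difference of -2.05 (SE 0.35). C233R142 gave 3 nearly equal Day 1 values, 0.36, 0.45 and 0.44 in Fish 2 to Fish 4, and -0.30 in Fish 1. Its Day 5 values of -2.82, -0.48, -1.74 and -1.83 had a wider SD than those of any other CFD probe, with Fish 1 lowest and Fish 2 highest, but all 4 were under the detection limit. The mean went from 0.24 ± 0.36 to -1.72 ± 0.96 (SD, n = 4), a difference of -1.96 (SE 0.35).

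C198R004 was the only probe in which the days overlapped. Its Day 1 log2 ratios were 1.37, 0.59 and 0.35 in Fish 2 to Fish 4 but -1.75 in Fish 1. Its Day 5 values were -1.41, -1.44, -1.63 and -2.04 in Fish 1 to Fish 4. The Day 1 sample of Fish 1 therefore lay among the Day 5 samples. In Fish 1 the Day 5 spot was under the limit. The Day 1 spot was at the limit (159.20 against 159.23), at 4.33 times the negative control mean. The difference of 0.34 between these spots therefore has no readable size or direction. The differences in Fish 2 to Fish 4, from Day 1 values over the limit, were -2.81, -2.22 and -2.38. The mean went from 0.14 ± 1.33 to -1.63 ± 0.29 (SD, n = 4), a difference of -1.77 (SE 0.46), and the Day 1 SD was the widest of the 5 probes. When paired SAM was run on the authors' processed values, this probe had the score nearest to the lower threshold of -1.65, at -1.83. The other 4 CFD probes scored between -4.68 and -2.48, and no CFD probe outside that threshold is known from the sources used here. The study chose its list by paired SAM on the same samples, so nothing is read from these probes passing.

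The Cy5 signals show how much of these differences can be read as fold changes. C233R142, C184R062 and C198R004 were at or under the limit on all 4 arrays of Day 5. Over the 3 probes, the Day 5 signals were 0.77 to 2.05 times the mean of the negative control spots, while at Day 1 they were 2.79 to 17.1 times that mean. Their levels at Day 5 are thus only bounded from above. Between the days, normalized Cy5 was at least 1.87-fold higher at Day 1 for C233R142 and at least 2.45-fold for C184R062. The same rule gave 1.89-fold for C198R004. The Day 1 mean of C198R004 includes the Fish 1 spot at the limit, so 1.89 is not a strict bound. Each of these values sets the Day 1 mean against the higher of 2 levels on each Day 5 array. These are the probe's own value and the median normalized Cy5 of the 100 probes just over the limit. The floor was chosen after the data were seen. It is a median of those 100 probes, so "at least" is approximate here and for the other probes below. For these values the average intensities of the arrays were also given the same distribution (Aquantile), a step not used for the log2 ratios. The ratios of the measured means were 4.05, 4.16 and 3.94.

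**Figure D2:**
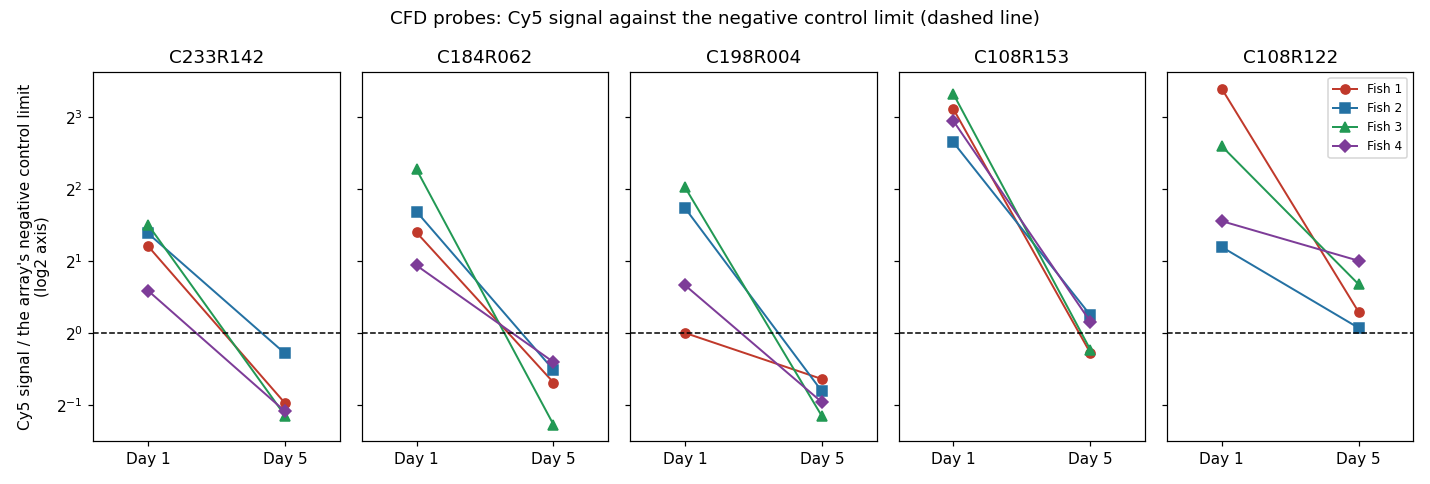
Cy5 signal of each CFD probe divided by the negative control limit of the same array (vertical axis, log2 scale), at Day 1 and Day 5, 1 line per fish; the dashed line is the limit. At Day 5, C233R142, C184R062 and C198R004 are under the line in all 4 fish, C108R153 is over it in 2 and C108R122 in 4, and at Day 1 only C198R004 of Fish 1 is at the line.

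Because the sample is a whole culture, fewer cells that contain the transcript and less transcript per cell cannot be told apart. Slides were told apart only by a number in the names of the scanned images. The 3 slides so named did not hold the days equally. Slides 1 and 2 each held 2 arrays of Day 1 and 1 of Day 5, and slide 3 held 2 of Day 5 only. Within slide 1 the difference was -2.85 for C233R142, -1.93 for C184R062, -1.22 for C198R004, -1.99 for C108R153 and -0.66 for C108R122. Within slide 2 it was -2.18, -2.77, -2.10, -3.11 and -1.38 in the same order. All 10 within-slide differences were negative, and 4 of the 5 probes differed more on slide 2, which held both samples of Fish 3 and the Day 1 sample of Fish 4, than on slide 1. The 5 probes were chosen by this change on these same arrays, so nothing is read from these signs.

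Fish 1 at Day 1 was the sample in which the CFD probes departed most from the rest. Its log2 ratio minus the mean of Fish 2 to Fish 4 was -0.72 for C233R142, -1.55 for C184R062, -2.52 for C198R004 and -1.37 for C108R153, and 0.06 for C108R122. Fish 1 was the lowest of the 4 fish at Day 1 in 4 of the 5 probes, as it was in 27.7% of the 30530 tested probes with 4 Day 1 values. Deviations as low as that of C198R004 occurred in 0.278% of those probes, as low as that of C184R062 in 2.99%, as low as that of C108R153 in 4.58% and as low as that of C233R142 in 15.2%. These shares changed when array position was taken into account, as given below. The departure of Fish 1 was known when it was chosen for description. All shares of this kind, and the comparison with marker lists below, are therefore descriptions and not tests.

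The place of the spot on the array moved with this value. C198R004 lies in row 4 of 170, and on the array of Fish 1 at Day 1 the probes of the first rows were low as a group. The median log2 ratio was -0.98 over the 2380 probes of rows 1 to 10 and -0.93 over the 2533 of rows 11 to 20, but 0.24 over rows 81 to 120 and 0.18 over rows 121 to 170. Median Cy5 signal was 50.3 in rows 1 to 10 against 229 in rows 81 to 120. Median Cy3 signal was 282 against 242, so the sample channel and not the reference channel was dim there. The 18 negative control spots of rows 1 to 20 had a median Cy5 of 3.62 on this array, against 24.8 in the other rows. The detection limit was set over the whole array and does not follow this. The C198R004 spot of 159.2 was brighter than 58.9% of the probes of the same rows. Running medians over 11 rows went from -1.11 to 0.30 on this array, and on the other 7 arrays their whole span was 0.18 to 0.70 log2 units. The other 4 CFD probes lie in rows 62 to 153, where the row medians of Fish 1 at Day 1 were between -0.06 and 0.22.

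**Figure D3:**
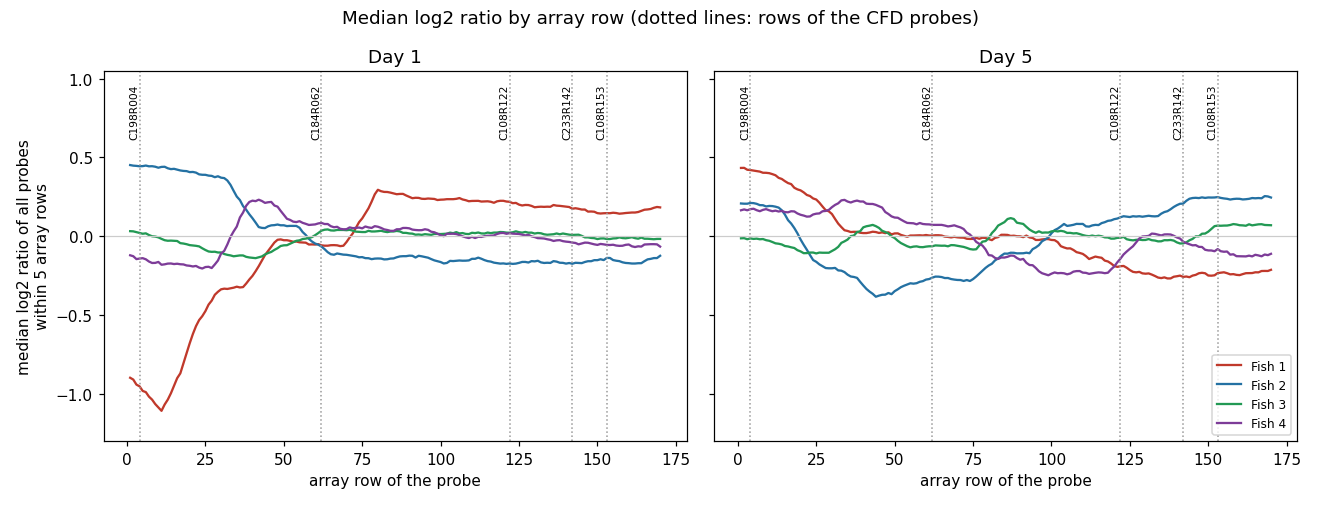
Median log2 ratio of all probes within 5 array rows (vertical axis) against the array row (horizontal axis), 1 line per fish, Day 1 on the left and Day 5 on the right; dotted lines mark the rows of the CFD probes. The line of Fish 1 at Day 1 falls to -1.11 in the first rows, where C198R004 lies, and the lines of the other arrays stay between -0.38 and 0.45.

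Taking the row median of each array from each probe, an alternative added after the data were seen, brought C198R004 to the level of the other probes. Its Day 1 values became -0.80, 0.92, 0.57 and 0.49 in Fish 1 to Fish 4, its Day 5 values -1.83, -1.65, -1.61 and -2.21, and the days no longer overlapped. The difference in Fish 1 became -1.03, still between 2 spots at or under the limit, and that over the 4 fish became -2.12 (SE 0.32). With this step 4 of the 5 CFD probes passed the threshold, beside 1.63% of all probes tested and lower at Day 5, and the share of probes with 8 values whose days did not overlap downward was 6.58%. The deviation of Fish 1 at Day 1 went from -2.52 to -1.46 for C198R004, and it was -0.96 for C233R142, -1.48 for C184R062 and -1.59 for C108R153. With row medians taken, deviations as low as these occurred in 0.763% of the probes for C198R004, 3.57% for C233R142, 0.714% for C184R062 and 0.491% for C108R153, so C198R004 no longer had the lowest share. The overlap in C198R004 thus moved with its array rows, and a lower Day 1 value of Fish 1 was present in the same 4 probes with or without this step. C108R122 again differed, with a deviation of -0.20.

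No marker list had a median as low as CFD in Fish 1 at Day 1. Each list was written by name and measured only through the symbols of the study's table of changed probes. The granule serine protease list thereby holds genes that may not be such proteases, as given below. The median deviation of Fish 1 at Day 1 was 0.11 over the 7 complement probes, 0.11 over 4 granule serine protease probes, 0.17 over 15 granulocyte probes, -0.05 over 20 macrophage probes and 0.04 over 30 B cell probes, counting probes with all 4 Day 1 values. It was 0.63 over 7 T and NK cell probes, -0.06 over 9 erythroid probes and 0.93 over 3 thrombocyte probes. Over the 5 CFD probes it was -1.37. With row medians taken, the list medians lay between -0.26 and 0.67 and CFD at -1.46. A median over several genes does not show single probes. AIF1 C152R005 (-1.89) and C5AR1 C073R014 (-1.66) were below the CFD median, while CD8B C134R047 (2.04) and C3AR1 C256R113 (1.41) were high. With row medians taken, SLC4A1 C136R119 was at -1.36 and CSF1R C058R046 at -1.19. CD8B C134R047 was then at 2.14 and C3AR1 C256R113 at 1.15. A low value of Fish 1 was thus not confined to CFD.

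**Figure D4:**
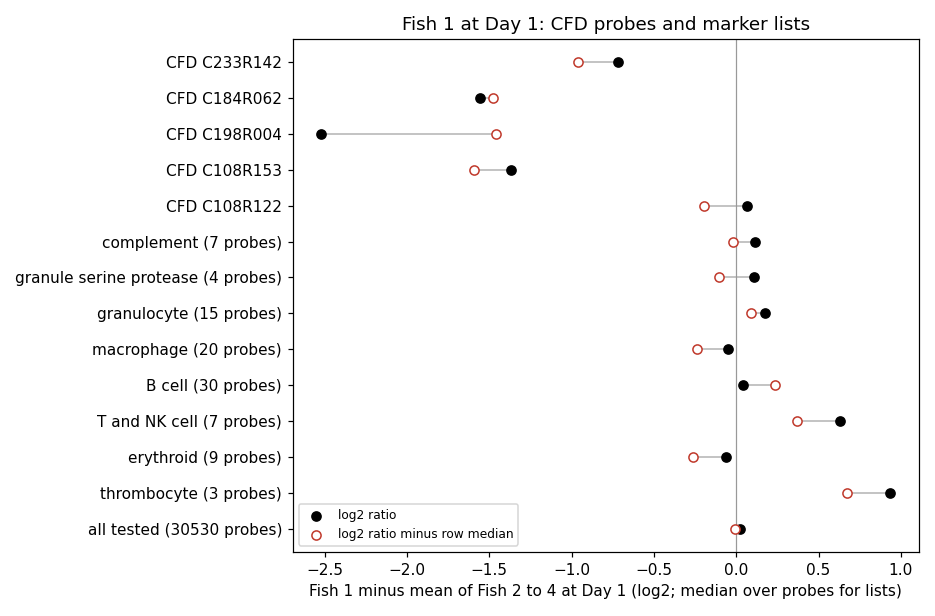
Log2 ratio of Fish 1 minus the mean of Fish 2 to Fish 4 at Day 1 (horizontal axis) for each CFD probe and as the median over each marker list, before (black) and after (open red) the row median was taken. C233R142, C184R062, C198R004 and C108R153 lie left of every list median in black and in red, and C198R004 moves from -2.52 to -1.46. Single probes of the lists are not drawn.

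The log2 ratios of the 5 probes were correlated across the 8 arrays, least so in C108R122. Pearson's r of the log2 ratios lay between 0.73 and 0.92 over the 6 pairs without C108R122, and between 0.49 and 0.83 over its 4 pairs, which share 7 arrays. Much of this is the difference between days, by which the 5 probes were chosen, so r over the 8 arrays is no evidence of agreement. After each day's mean was taken away, r was 0.32 to 0.84 over the 6 pairs, highest between C184R062 and C198R004, and -0.59 to 0.14 over the pairs of C108R122. After the day means, the mean of the CFD probes was at -0.91 in Fish 1 at Day 1. On the other arrays it was between -0.19 and 0.35. These r values without that array were not computed. The points share their arrays, dyes and reference pool. With row medians taken, r over the 6 pairs was 0.87 to 0.96 in full and 0.41 to 0.79 after the day means.

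Among the complement genes, receptors had named probes that changed in opposite directions, and no component that CFD works with was named. Of the 60 genes of the list, 5 had a named probe and 4 were tested, with 7 probes. 2 of these rose and 3 fell in the limma fit, beside 1.09% of all tested probes called higher and 0.936% called lower at Day 5 (2.03% together), and the median difference was -1.10 against -0.004 over all tested probes. The names come from a table chosen on these samples, so the counts are no independent evidence of a direction. No factor B, C3, properdin, terminal component or regulator of the list had a named probe, which says nothing about whether the array holds one.

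C3AR1, the receptor for the anaphylatoxin C3a, rose in both of its probes. C256R113 had log2 ratios of -1.54, -3.35, -2.85 and -2.64 at Day 1 and 1.48, 0.85, 0.36 and 0.30 at Day 5 in Fish 1 to Fish 4, and rose by 3.35 (SE 0.33), with Cy5 over the limit on 1 of 4 Day 1 arrays and on all 4 at Day 5. C222R040 rose by 2.44 (SE 0.36) and was under the Cy5 limit on all 4 Day 1 arrays, which makes it at least 3.45-fold higher at Day 5. The days did not overlap in either probe, but the share of all probes with such an upward gap was not computed, so nothing is read from it. At Day 1 the 2 probes placed Fish 1 at opposite ends, highest of the 4 in C256R113 and lowest in C222R040, with deviations of 1.41 and -0.87, and at most 1 of the 4 Day 1 spots of either was over the limit.

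C5AR1, the receptor for C5a, fell in both of its probes. C050R075 had log2 ratios of 0.51, 0.11, 0.37 and 0.74 at Day 1 and -0.59, -1.49, -1.38 and -1.09 at Day 5 in Fish 1 to Fish 4, and fell by 1.57 (SE 0.30). C073R014 had -0.76, 0.53, 0.58 and 1.61 at Day 1 and -0.88, -2.20, -1.14 and -1.54 at Day 5, and fell by 1.93 (SE 0.44). This second probe lies in row 14, and its Fish 1 value at Day 1 had the same low position as in C198R004, with a deviation of -1.66 that became -0.59 when row medians were taken.

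The recognition molecules of the list were MBL2, a mannose-binding lectin that starts the lectin pathway, APCS, a pentraxin, and C1QB, a chain of C1q. MBL2 fell by 1.68 (SE 0.33) in C220R158 and differed by -1.10 (SE 0.33) in C106R165, which did not pass the test but did with row medians taken. Both MBL2 probes were under the Cy5 limit on all 4 arrays of Day 5, and over it on 3 and 2 of 4 at Day 1. The rule used for the CFD probes gave 1.07-fold and 1.01-fold higher at Day 1. These are not strict bounds, as the Day 1 means include spots under the limit, so little can be said of the size. APCS differed by 0.25 (SE 0.30) and did not pass. C1QB had too few values to be tested.

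Named probes of the granule serine protease list came from the same table chosen on these samples. Of its 3 named genes only GZMK is taken here as a granule protease, so the list values do not describe such enzymes. Of 18 genes, 3 were named, with 5 probes, of which 1 fell (0.936% of all tested probes did), none rose (1.09% of all did) and the median was -1.12. PRSS16 was on the list by name, but it is a thymus-specific serine protease in mammals and not a granule enzyme. It fell by 1.85 (SE 0.37) in C069R076 and differed by -1.35 (SE 0.39) in C256R024. GZMK, granzyme K, differed by -1.12 (SE 0.35). TPSNR was put on the list by its symbol, and that it encodes a tryptase or any other protease was not established. It differed by 1.07 (SE 0.38) and 1.32 (SE 0.32) in its 2 probes, and no contrast with CFD is drawn from it. Of these 5, only PRSS16 C069R076 passed the test, and with row medians taken PRSS16 C256R024 and TPSNR C115R123 passed too.

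Named marker probes of several leukocyte types also differed between the days, and their names come from a table chosen by this change. Of the 15 tested granulocyte probes, from 10 of 30 genes, 7 fell and 2 rose, with a median of -1.24, beside 0.936% called lower and 1.09% called higher over all tested probes. The mean log2 ratio over these probes was between -0.40 and 0.06 on the Day 1 arrays and between -0.86 and -0.49 on the Day 5 arrays, and 4 of the 15 probes were under the Cy5 limit on all arrays of Day 5. The chemokine receptor CXCR1 fell in both of its probes (-2.65, SE 0.34, and -1.84, SE 0.32). CXCR4 also fell in both, C218R124 (-1.62, SE 0.34) and C252R066 (-1.93, SE 0.31). Of the transcription factors, CEBP1, a myeloid factor known from zebrafish, fell by 1.37 (SE 0.30), and CEBPD fell in both C026R028 (-1.62, SE 0.36) and C044R110 (-2.51, SE 0.54). C252R066 and C026R028 were among the probes under the limit at Day 5, and were at least 1.65-fold and 2.03-fold higher at Day 1.

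FPR1, a receptor for formylated peptides, went the other way and rose by 2.12 (SE 0.30) and 2.31 (SE 0.38). The probes of CSF3R, the granulocyte colony-stimulating factor receptor (-1.10, SE 0.41), ALOX5AP, which serves leukotriene synthesis (-0.89, SE 0.31), and CAMP, a granule peptide (1.94, SE 0.45), did not pass. Neither did the 2 tested probes of MMP13, a collagenase, at 0.87 (SE 0.36) and -1.24 (SE 0.35). The CSF3R probe and the second of these MMP13 probes were under the limit on all 4 Day 5 arrays. CSF3R was at least 1.38-fold higher at Day 1. The same rule gave 1.67-fold for MMP13, not a strict bound, as only 3 of its 4 Day 1 spots were over the limit. The defining granule enzyme MPO had no named probe here. CSF3R lies in row 11, and its deviation of Fish 1 at Day 1 went from -0.95 to 0.24 when row medians were taken. With that step CSF3R (-1.50) and CAMP (1.92) passed the test.

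Of 34 B cell probes 23 fell and 1 rose, with a mean log2 ratio between 0.10 and 0.40 on the Day 1 arrays and between -1.52 and -0.71 on the Day 5 arrays. Of 12 erythroid probes 10 fell and none rose, with means between 0.02 and 1.19 at Day 1 and between -1.98 and -1.16 at Day 5. Of 20 macrophage probes 12 rose and none fell, with means between -1.28 and -0.96 at Day 1 and between 0.24 and 0.74 at Day 5. Of 8 T and NK cell probes 1 rose and none fell by the test, but 7 had a negative difference and the median was -1.14, with means between -0.09 and 0.78 at Day 1 and between -0.95 and -0.18 at Day 5. None of the 3 thrombocyte probes passed, and all 3 had a negative difference, with a median of -1.05. These counts stand beside the same 0.936% called lower and 1.09% called higher over all tested probes. The names come from a table chosen by the same change in these samples. High shares of calls were thus to be had in advance, and nothing is read from these counts or from those of the granulocyte list. The 5 CFD probes had the sign of the B cell and erythroid medians (-1.58 and -2.05). They shared this sign with the granulocyte (-1.24), T and NK cell (-1.14) and thrombocyte (-1.05) medians. Only the macrophage median (1.59) had the opposite sign, and the part of any cell type in the CFD values was not tested.

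The named probes whose pattern over the 8 arrays was most like the mean of the CFD probes were ranked by Pearson's r, over 1679 named probes without a missing value. The 10 highest were probes of ZNF362 (r = 0.97), IGKC (0.96, 0.96 and 0.94), DKC1 (0.96), HSPA5 (0.95), FABP6 (0.95), IGLL5 (0.95), TOE1 (0.95) and ARF5 (0.94). IGKC and IGLL5 are immunoglobulin light chain genes, HSPA5 is a chaperone of the endoplasmic reticulum, DKC1 and TOE1 act in RNA processing, and FABP6 binds fatty acids and bile acids. All 10 were lower at Day 5, with differences from -0.95 (DKC1 and TOE1) to -3.73 (FABP6). All 10 also had a lower Day 1 value in Fish 1 than the mean of the other fish. Both are traits of the CFD mean by which the probes were ranked, so nothing is read from these counts. The C211R005 probe of FABP6 was over the limit on 4 of 4 Day 1 arrays and 0 of 4 at Day 5, like C233R142 and C184R062. It was at least 9.84-fold higher at Day 1. The ARF5 probe was likewise bounded, at 1.16-fold or more. Of these 10 probes, 6 were again among the 10 highest when row medians were taken.

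After the day means were removed, the 10 probes most like CFD were of FPR1 (r = 0.97), SCAMP1 (0.96), SYPL1 (0.96), LRRFIP1 (0.94), JUP (0.93), GNG7 (0.93), ATP6V0D1 (0.92), CLCC1 (0.92), RGS18 (0.92) and RUFY2 (0.91). Of these, 9 lie in rows 1 to 20, which hold 9.83% of the named probes ranked and 11.2% of all probes. With row medians taken, only 1 of the 10 remained, and 4 of the new 10 were in those rows. The FPR1 probe, in row 145, was not kept either. The ranking changed with this step, which was applied to all 8 arrays at once, and it was not read further.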

How the data were processed

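The authors read the spots from the scanned slides with ImaGene 9.0 and deposited unnormalized signal and background intensities, with flags, for both channels. A table of processed log2 ratios (18108 probes, normalized by loess, filtered and imputed), also deposited, served as an alternative. Genes were named from the symbol column of the study's table of 2139 changed probes, matched by probe identifier, and its fold changes and q-values were not used. CFD probes and lists were chosen with earlier results of these data known.

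Signal means were corrected with the background medians by normexp (offset 50) and normalized by loess (limma 3.58.1, statmod 1.5.0, R 4.3.3). Control spots (1531 of 45220 on each array) and missing spots had weight 0. Flagged spots, and spots not 2 SD above local background in either channel, were missing, and probes missing on more than 2 of 8 arrays were left out, which kept 38695. The choice that missing spots had no weight in the loess was settled after calls had been counted, and the other choice is among the alternatives. The change from Day 1 to Day 5 was fitted with lmFit and eBayes, with a term for each fish, and p-values were adjusted by Benjamini-Hochberg (threshold 0.05). The labels give each number to 1 fish. Within a fish, the deviations of the samples from their day means had correlations of -0.05, -0.08, 0.08 and 0.03, so it is the origin that pairs them. Each value rests on 4 arrays a day, and their number limits the precision. Procedures were tested on simulated data.

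The text names the 5 CFD probes, each named gene of the complement, granule serine protease and granulocyte lists, and the 10 named probes most correlated with the CFD mean, before and after the day means were removed. One further animal and the RT-qPCR were not analysed here, nor were probe sequences. A listed gene that is not reported here remains in the list counts.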

Additional observations from a re-analysis of the deposited data

Results flagged for a closer look

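In 57 sets of 4 values from 33 probes of CFD and of the complement, granule serine protease and granulocyte lists, 3 sets held a sample whose gap to the nearest other sample was a larger part of the range than the 95% critical value of Dixon for 4 samples allows, a rule that chance meets in about 1 of 20 sets. The first was CFD probe C233R142 at Day 1, where Fish 1 was at -0.304 and the others between 0.359 and 0.453, a gap of 0.876 of the range that became 0.912 when row medians were taken; Fish 1 was low by the same rule in 1.02% of the 30530 probes with 4 Day 1 values. In C198R004, where Fish 1 was farthest below the others, the gap was 0.672 of the range, since the other 3 fish also spread. The second was MBL2 probe C220R158 at Day 1, where Fish 1 was at 1.09 and the others between 0.0776 and 0.174, high where CFD was low. The last was CEBPD probe C044R110 at Day 5, with Fish 4 at -2.98 and the others between -1.71 and -1.59.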

How the results depend on the processing

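All CFD probes that could be tested were lower at Day 5 under each of the 21 settings fitted, including all 4 fits without 1 fish, but only 1 of them kept enough values with the signal median and 2 when spots had to exceed the negative controls. The probes were chosen by this change on the same arrays, so nothing is read from the constant direction. The cause was not tested for any change below unless the setting itself shows it. With the authors' processed log2 ratios, which include imputed values, the difference was -3.52 for C233R142 and -3.45 for C184R062. C108R122 differed by -1.41 with no spots set to missing and -1.52 with median centring. Without 1 fish, the differences ranged from -2.33 to -1.77 (C233R142), -2.37 to -1.73 (C184R062), -2.47 to -1.42 (C198R004), -2.71 to -2.08 (C108R153) and -1.27 to -1.05 (C108R122).

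The count of 784 probes past the threshold (422 higher, 362 lower) was 0 in limma with plain subtraction, no background correction and an offset of 10, with 4217, 4393 and 4463 passing an unadjusted 0.05. SAM with paired samples called 1238 on the main values and 2048 on the processed ratios. It was 461 with no spots set to missing, 80 with slide as a fixed block, 1361 with row medians taken, and 317 (without Fish 4) to 751 (without Fish 1), with 383 without Fish 3. Median centring gave 338 higher and 567 lower. With missing spots kept in the loess it was 734, and 751 with probe spots alone in normexp and loess, both added after the data were seen, as were the row medians. Without the replicate block it was 918, and leaving out the block changed no CFD call. Limma on the processed ratios called 1068 of 18108 probes.

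CFD calls fell from 3 to 0 under the first 3 settings and to 1 with the signal median, under the negative control filter and without Fish 3. They fell to 2 with slide as a fixed block and without Fish 4. They rose to 4 with the processed ratios, without Fish 1 and with row medians taken. Called complement probes, 5 in the main setting, were 0 under plain subtraction, no correction and offset 10, 3 with the signal median and with no spots missing, 2 under the negative control filter, 1 with slide fixed, and 2 (without Fish 3 or Fish 4) to 4 without 1 fish. Called granulocyte probes, 9, were 0 under those 3, 2 with slide fixed, and 3 (without Fish 3) to 9. The granule serine protease list had 1 called probe, of PRSS16. This count became 0 under those 3, the negative control filter and slide fixed. It was 2 without the replicate block and with slide as a random block. It was 3 with the processed ratios and with row medians, and 0 (without Fish 2 or Fish 4) to 2 without 1 fish.

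The deviation of Fish 1 at Day 1 in C233R142 was -0.82 with the signal median, -0.26 with median centring, -1.11 in the processed ratios and -0.96 with row medians taken. In C184R062 it was -1.24 with the signal median and -1.06 with median centring, and in C198R004 -3.35 in the processed ratios and -1.46 with row medians. In C108R122 it was 0.55 with median centring, 0.62 in the processed ratios and, turned in sign, -0.20 with row medians. The median r among CFD probes, 0.82, ranged from 0.77 to 0.92 without 1 fish. Signal over background limits the 3 probes that were under the negative control limit at Day 5.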
